A study of Mus musculus with 4 samples.

Results

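Il2ra, Il2rb, Il2rg, Il7r, Il15ra, Il4ra, Il18r1, Il1rl1, Il21r and Il6ra encode receptor chains through which lymphocytes sense cytokines. These 10 genes, of 32285 in the table, were chosen by name, and each was followed across the 16 annotated cell clusters and between control and glucocorticoid (GC) treated tumors. The cells were live CD45+ cells, that is hematopoietic cells, sorted from melanomas of the cell line 20967, injected intradermally into wild type C57BL/6 mice. The line was derived from C57BL/6 animals with the alleles Nras+LSL-G12D and, to drive them, Tyr::CreERT2+/o, a tamoxifen-inducible Cre under the melanocyte tyrosinase promoter that switches on mutant Nras. The tumor cells of both groups therefore shared that background. The GC group received clobetasol propionate, a potent skin glucocorticoid, and the control group a control treatment, which the study's methods give as an emollient cream. The labels give no age, and all tumors derived from the same transplanted line. Each group had 5 tumors, marked by hashtag and pooled into 1 droplet channel per treatment, so treatment and channel cannot be told apart.

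The control channel gave 3803 cells, with 347 to 1250 cells and 2735708 to 9869474 UMIs (unique molecular identifiers, each a counted RNA molecule) per tumor. The GC channel gave 305 cells, with 18 to 111 cells and 139195 to 1235264 UMIs per tumor, after 3500 cells were loaded against 17100 for the control channel. Median UMIs per cell were 7440 and 9163, and no barcode was shared by the channels. Every lineage marker was detected in its cluster, except for 1 of 6 in eosinophils and 1 of 8 in Monocytes 3, but CD8 2, CD8 3, CD8 4, Monocytes 1 and Monocytes 3 had 0 of them among their 10 leading genes. Proliferation genes led cluster CD8 4. With 30 cells, all from control tumors, CD8 4 was therefore kept apart from CD8 1 to CD8 3, which are called CD8 T cells below. The leading genes held 1 marker of another class in the CD4 cluster (Ebf1, a B cell marker), Tregs (Areg) and eosinophils (Retnlg). Ebf1 led the CD4 cluster, and Igkc, an immunoglobulin light chain gene, was also among its 10 leading genes. Whether B cells were part of the CD4 cluster was not tested. A level is the mean over a tumor's cells of UMIs per 10000 UMIs, given as mean ± SD over tumors, and a tumor entered a test only with enough cells, so 2 to 5 GC tumors were compared with 5 control tumors.

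Cytokine receptors work as assemblies of chains. IL-2 is bound by the alpha chain Il2ra and signals through Il2rb and the common gamma chain Il2rg. Il2rg also pairs with Il7r, Il4ra and Il21r, while Il15ra mostly presents IL-15 from the cell that carries it to the Il2rb and Il2rg chains of a neighbor. These chains act through JAK kinases and STAT factors, as does Il6ra, the IL-6 binding chain that signals with Il6st. Il18r1 and Il1rl1, the receptors for IL-18 and IL-33, belong to the IL-1 receptor family and act through MyD88 and IRAK kinases. In lymphocytes, IL-7 is known for survival, IL-2 for expansion and for the upkeep of regulatory T cells (Tregs), and IL-33 for tissue Tregs. Outside the lymphocytes, IL-33 is also known for eosinophils.

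Most of the chains share a mark of their family in the coding sequence. Chains of the class I cytokine receptor family carry a motif of tryptophan, serine, any residue, tryptophan and serine close to the membrane, and 6 of the 10 members held it in frame in the GENCODE transcript of the GRCm38 build. The motif was found in neither Il18r1 nor Il1rl1, nor in the alpha chains Il2ra and Il15ra, which are built of other domains. The 6 stretches are shown 5′ to 3′ on the coding strand because they mark which members share the family fold, with the codons of the motif in capitals and 15 coding bases on each side in lower case.
Il2rb: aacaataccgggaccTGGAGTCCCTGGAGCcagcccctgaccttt
Il2rg: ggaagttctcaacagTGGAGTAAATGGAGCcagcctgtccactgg
Il7r: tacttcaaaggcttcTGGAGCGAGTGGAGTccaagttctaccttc
Il4ra: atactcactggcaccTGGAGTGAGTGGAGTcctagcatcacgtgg
Il21r: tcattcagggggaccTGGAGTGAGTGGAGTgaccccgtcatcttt
Il6ra: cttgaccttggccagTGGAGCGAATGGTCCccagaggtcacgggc
The motif codons of Il4ra and Il21r were spelled alike, TGGAGTGAGTGGAGT. Il6ra was the only one of the 6 whose last serine was encoded by TCC.

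The members fall into 3 neighboring pairs and 4 genes that stand alone. Il4ra (chr7:125552120-125579474) and Il21r (chr7:125603429-125633570), both on the plus strand, lie 24.0 kb apart with 0 coding genes between them. Il2ra (chr2:11642807-11693193) and Il15ra (chr2:11705290-11734317) are both on the plus strand with a gap of 12.1 kb. Only 136 bases separate Il1rl1 (chr1:40429570-40465415) from Il18r1 (chr1:40465552-40500854), again both on the plus strand. On the minus strand lie Il7r (chr15:9505788-9530176), Il2rb (chr15:78479256-78495271), Il2rg (chrX:101264378-101268255) and Il6ra (chr3:89864059-89913196). Gene models of other names overlap Il2ra and Il2rg on the same strand (Gm37881 and Gm20489) and Il4ra and Il6ra on the opposite strand, and reads lost to such overlaps were not tested. Gene counts do not separate the soluble from the membrane forms of Il1rl1 and Il6ra.

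In the 250 bases before the RefSeq start of Il7r, the member called in the most classes below, there was 1 match to TTCNNNGAA, the letters of a STAT-type site. The 250 bases searched, chr15:9529877-9530126, lie inside the GENCODE gene model of Il7r given above, whose 5′ end is at 9530176. Sequence upstream of that model was not searched. The match lies 142 to 134 bases before the RefSeq start, in capitals in the window chr15:9530000-9530028 of GRCm38, minus strand.
Il7r: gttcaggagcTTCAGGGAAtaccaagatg
On either strand this motif was found in 7.02% of 32851 promoters of that length. The shorter glucocorticoid receptor motif AGAACA was found in 16.1% of promoters, with 0 matches for Il7r and 1 each for Il2ra and Il2rg. The palindromic glucocorticoid receptor motif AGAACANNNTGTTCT was found in 3 of the 32851 promoters and in none of the 9 members with an entry. The STAT-type motif was also found 2 times before the third listed start of Il18r1.

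In control tumors the IL-2 receptor chains were carried by different cells. The alpha chain Il2ra, also known as CD25, was highest in Tregs at 25.6 ± 2.31 UMIs per 10000 (n = 5 tumors). Its levels in the 5 tumors, 21.7, 27.6, 25.7, 26.6 and 26.6, were all above those of the next cluster, the proliferating CD8 4 at 7.20 ± 4.47 (n = 2). DC 1, the cluster led by Ccr7, Fscn1 and Ccl22 as in mature dendritic cells, reached 3.77 ± 0.893 and overlapped with CD8 2 at 3.73 ± 0.829, while TAMs (tumor-associated macrophages) were at 0.0775 ± 0.0402. Il2ra was itself among the 10 leading genes of the Treg cluster, so its place there is a description.

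The beta chain Il2rb, shared by the IL-2 and IL-15 receptors, was highest in NK cells at 11.8 ± 1.54 UMIs per 10000. Every NK value, from 10.3 to 14.4, lay above those of CD8 2 at 8.18 ± 0.845, and CD8 2 in turn lay above CD8 3 at 5.95 ± 0.456. Tregs, at 5.13 ± 0.409, overlapped with CD8 1 at 5.58 ± 0.303. In DC 1 Il2rb was at 0.116 ± 0.0967, so that cluster had Il2ra with almost none of the signaling chain. The common gamma chain Il2rg varied least among the lymphoid clusters, from 2.20 ± 0.584 in NK cells to 3.29 ± 0.478 in Tregs, with neighbors in the order overlapping. It was 1.06 ± 0.0877 in TAMs and 0.402 ± 0.203 in eosinophils.

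Il7r, the IL-7 receptor alpha chain, was highest in γδT cells at 18.0 ± 3.52 UMIs per 10000, where the lowest tumor, at 12.4, was above the highest Treg value of 11.7. Tregs (9.95 ± 1.23) and the CD4 cluster (9.11 ± 1.45) overlapped, and both were above DC 1 (6.22 ± 1.53) on the mean. The CD8 clusters lay together between 3.96 ± 0.993 and 5.19 ± 0.768. NK cells, at 0.856 ± 0.828, had less than TAMs at 1.90 ± 0.188 on the mean, but their ranges overlapped.

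Il15ra was a gene of DC 1. Its level there was 4.32 ± 3.87, a spread set by tumors from 1.38 to 11.0, and even the lowest was above the next cluster, Monocytes 1, at 0.502 ± 0.167. Il21r, the receptor of the T helper cytokine IL-21, was highest in CD8 2 (4.26 ± 0.25) and DC 1 (3.63 ± 0.792), which overlapped. CD8 2 was the CD8 cluster led by Lag3, Ifng and Rgs16, and its lowest tumor, at 4.01, was above the highest of CD8 1, at 2.49.

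Il18r1 was carried by every T and NK cluster, from 6.51 ± 1.47 in CD8 4 to 19.95 ± 5.80 in γδT cells, with neighbors in the order overlapping. The highest of the other 8 clusters, eosinophils, was at 0.559 ± 0.137. Il1rl1, also known as ST2, was highest in Tregs at 5.81 ± 1.15, followed by eosinophils at 2.27 ± 0.725, and the tumor ranges (4.59 to 6.89 and 1.57 to 3.38) did not overlap. The next were the CD4 cluster at 0.501 ± 0.618 and CD8 4 at 0.357 ± 0.461. Its genomic neighbor Il18r1 was at 7.97 ± 0.964 in Tregs, but unlike Il1rl1 it was as high or higher in most T cell clusters.

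The 2 remaining chains were highest in myeloid clusters. Il4ra, which binds IL-4 and IL-13, was highest in Monocytes 1 (4.24 ± 0.736) and TAMs (3.21 ± 0.413), which overlapped, and was 1.22 ± 0.318 in Tregs and 0.572 ± 0.309 in NK cells. Il6ra was highest in Monocytes 2 at 4.33 ± 0.452, above all values of Monocytes 3 at 2.50 ± 0.509. Among lymphocytes it was 0.888 ± 0.277 in Tregs and 0.791 ± 0.199 in the CD4 cluster, against 0.0308 ± 0.0214 in CD8 1.

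**Figure D1:**
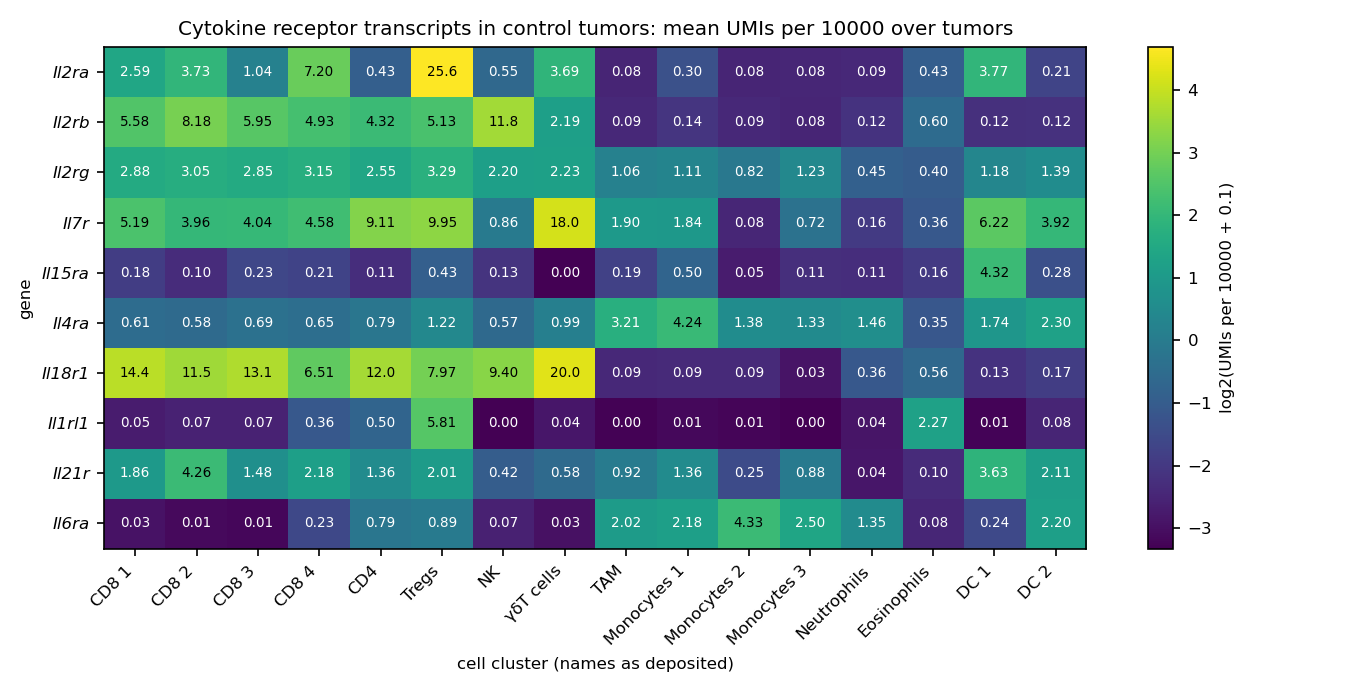
Mean level of the 10 receptor genes in each of the 16 clusters of the control tumors, with the mean UMIs per 10000 over tumors printed in each cell and the color on the scale log2(UMIs per 10000 + 0.1). Il2ra stands out in Tregs (25.6), Il7r and Il18r1 in γδT cells (18.0 and 19.95), Il15ra in DC 1 (4.32) and Il6ra in Monocytes 2 (4.33).

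Across the 16 clusters, Il18r1 and Il2rb had the most similar profiles of any member pair (Pearson r of 0.96 on log2 levels), and Il18r1 and Il6ra the most opposed (r of -0.76). Skap1 and Gprin3 were among the genes outside the list most like Il18r1, and those most like Il2rb were Trbc1, Nlrc3 and Ctla2a. Foxp3, the defining factor of Tregs, was the gene most like Il1rl1 (r of 0.89). Dusp4 was most like Il2ra (r of 0.89), Fnbp1 most like Il7r (r of 0.89) and Bin1 most like Il21r (r of 0.92). These coefficients describe 16 clusters that share libraries, depth and a lymphoid or myeloid origin.

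The share of single cells in which all the chains of a receptor were found at once differed between receptors, and thinning lowers it. With each cell thinned to 2000 UMIs, Il2ra, Il2rb and Il2rg were found together in 128 of 447 control Tregs (28.6%), in 80 of 857 control CD8 T cells (9.3%) and in 0 of 95 control DC 1 cells. Without thinning, the single chains Il2ra, Il2rb and Il2rg were found in 94.0%, 83.7% and 73.9% of control Tregs. In control CD8 T cells, Il2rg was found in 43.8% of cells with Il2rb and in 44.7% of all, and in 44.9% of cells with Il7r. Detection of one chain therefore went with little change in detection of the other at this depth. For the IL-18 receptor, Il18r1 and its partner Il18rap were found together in 41.5% of control CD8 T cells and 46.2% of NK cells, but in 16.6% of Tregs. Il1rl1 and its partner Il1rap met in 1.3% of control Tregs, and Il6ra and Il6st in 5.2% of monocytes.

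The comparison of GC with control tumors asks which of these receptors differed after treatment in each cell type. In CD8 T cells, Il7r was 2.99 times as high in GC tumors, and no other member tested passed the threshold. The control tumors were at 4.38, 4.08, 5.79, 4.75 and 4.77 UMIs per 10000, and the GC tumors at 14.8, 15.4, 15.98, 11.5 and 11.2. All GC tumors were above all control tumors, including GC 1 and GC 4, which had under 10 CD8 T cells and stayed out of the test. The change was 1.55 ± 0.15 (SE) on the scale log2(UMIs per 10000 + 0.1), from 4.75 ± 0.643 (n = 5) to 14.2 ± 2.57 (n = 3), with a limma adjusted p of 0.000261. In CD8 T cells 1 of 7 members tested was called, against 5.02% of 6158 genes tested, and Il15ra, Il1rl1 and Il6ra were too low to enter.

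The rise in Il7r was seen inside the CD8 clusters. In CD8 1, control tumors were between 4.15 and 6.24 and GC tumors between 13.8 and 19.5, a change of 1.70 ± 0.15 with a limma adjusted p of 0.000168. In CD8 2, control tumors were between 3.01 and 5.02 and GC tumors between 4.20 and 14.6. There the change of 1.19 ± 0.29 did not pass the threshold, with a limma adjusted p of 0.0896, and the groups overlapped in GC 4. Among cells thinned to 2000 UMIs, the share of CD8 T cells with an Il7r UMI was 50.2% of 857 control cells (exact 95% interval 46.8 to 53.6) and 79.8% of 104 GC cells (70.8 to 87.0). Without thinning the shares were 73.5% and 91.6%. TAMs, which had fewer Il7r molecules, showed a UMI in 22.7% of thinned control cells.

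The other CD8 T cell receptors had smaller differences. Il2rb was at 6.37 in control and 6.27 in GC tumors, a change of -0.03 ± 0.11, and the change of Il2rg was 0.19 ± 0.14. The change of Il21r was -0.10 ± 0.18. Il4ra was at 0.607 in control and 0.862 in GC tumors, with no overlap between the tumors tested (limma adjusted p of 0.187). Il18r1 was lower on the mean, 13.4 against 9.53 (limma adjusted p of 0.105). Il2ra was higher on the mean, 2.82 ± 0.238 against 4.94 ± 2.70, with GC tumors 2 and 5 at 7.49 and 5.21 and GC 3 at 2.12 (limma adjusted p of 0.255). The 5 control tumors, at 2.52 to 3.00, were far tighter. The summed T cell markers were 55.9 to 57.9 in control and 47.2 to 53.3 in GC tumors, with 8 of 8 markers found in each. Macrophage transcripts in the same cells were 2.11 to 3.19 and 0.22 to 0.37, and their part in the results was not tested.

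**Figure D2:**
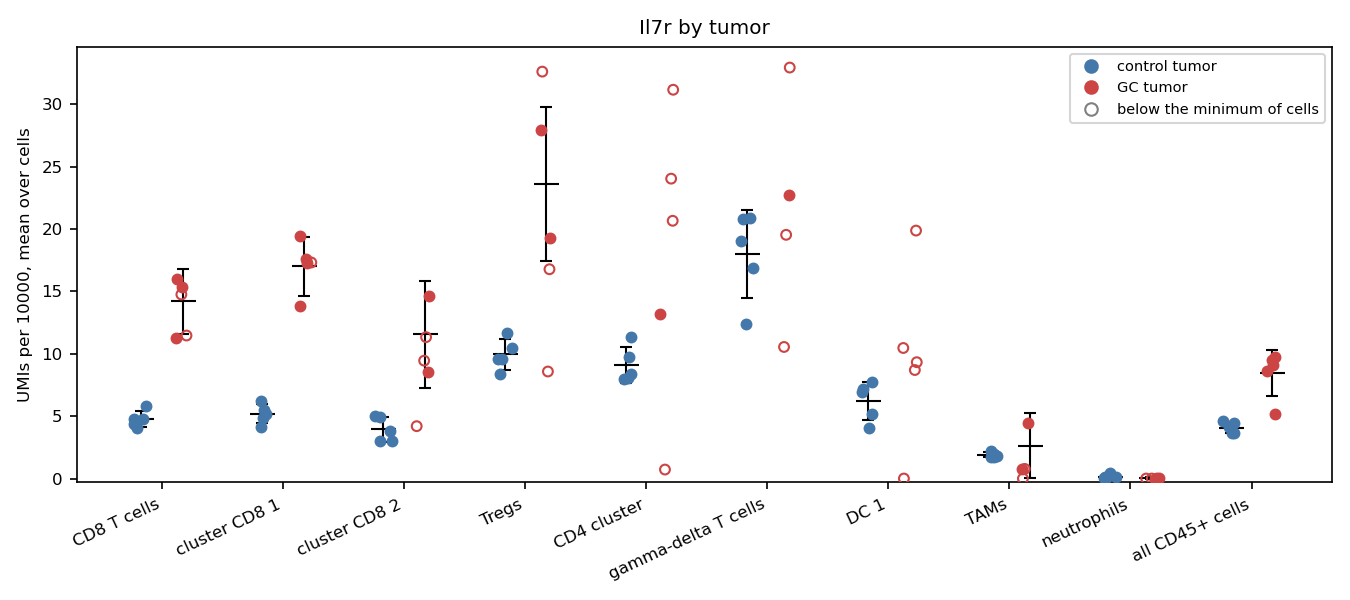
Il7r in each tumor, as the mean UMIs per 10000 over the cells of each class, with control tumors in blue, GC tumors in red, open points for tumors below the minimum of cells, and a bar for the mean ± SD of the filled points. The GC tumors lie above every control tumor in CD8 T cells (11.2 to 15.98 against 4.08 to 5.79) and in all CD45+ cells (5.21 to 9.76 against 3.64 to 4.59).

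In Tregs, 4 of 10 members passed the threshold, against 16.6% of 6031 genes tested: Il7r rose, and Il2ra, Il2rg and Il1rl1 fell. Tregs were scarce after treatment, with 14 cells in the 5 GC tumors, and only GC 3 and GC 5, with 5 cells each, entered the test. Il7r was 9.59, 9.58, 11.7, 10.5 and 8.40 in the control tumors and 8.58, 32.6, 19.3, 16.8 and 28.0 in the GC tumors. Only GC 1, with 1 Treg, was not above the controls. The change was 1.22 ± 0.19, with limma and edgeR adjusted p of 0.00518 and 0.0034, but it was 0.94 with a limma adjusted p of 0.0711 when every tumor with a Treg was included.

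Il2ra in Tregs was 21.7, 27.6, 25.7, 26.6 and 26.6 in the control tumors and 13.5, 11.8, 4.29, 10.9 and 18.0 in the GC tumors, with no overlap. The change was -1.52 ± 0.44 with a limma adjusted p of 0.0474, but the edgeR adjusted p was 0.120. Leaving out any 1 control tumor gave limma adjusted p of 0.0878 to 0.107, and with every GC tumor included the change was -1.26 with a limma adjusted p of 0.0169. It was -0.50 without GC 3 and -2.55 without GC 5. Summed over cells, Il2ra was at 11.0 UMIs per 10000 in GC Tregs (95% Poisson interval 9.21 to 13.0, counting error only) and 26.1 in control Tregs. Il2ra remained detected in most GC Tregs, with a UMI in 11 of 14 thinned cells against 400 of 447 control cells, where TAMs gave a background share of 1.41%.

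Il1rl1 in Tregs was between 4.59 and 6.89 in control tumors and was 1.23, 0, 0, 0 and 2.20 in the GC tumors. The change was -3.60 ± 0.94, with limma and edgeR adjusted p of 0.0350 and 0.0409, and -4.21 with a limma adjusted p of 0.01 with every tumor included. Leaving out any 1 control tumor gave limma adjusted p of 0.077 to 0.0855. The size rested on single tumors and on the scale, with a change of -1.34 without GC 3, -5.86 without GC 5 and -0.95 on the mean of deposited log values. Il1rl1 and Il7r were the 2 members that edgeR and DESeq2 also called in Tregs. The fall in Il2rg, from 3.29 ± 0.478 to 1.35 ± 0.719, had a limma adjusted p of 0.0193 and an edgeR adjusted p of 0.0621, and a limma adjusted p of 0.0511 to 0.0557 without control 1, 3 or 4. Without GC 3 the Il2rg change was -0.78. With every tumor included the Il2rg change was -0.56 with a limma adjusted p of 0.543, since GC 1 and GC 4 were at 3.68 and 3.36. Il2rb, at 5.13 ± 0.409 in control and 5.14 ± 2.63 in GC tumors, had a change of -0.09 ± 0.27.

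In the cells annotated as Tregs, 7 of 7 Treg markers were found in each group, with a summed level of 151 to 164 in control and 124 to 177 in GC tumors. The annotation was itself made from marker expression, so this cannot show whether Tregs kept their markers after treatment. Macrophage transcripts in the Tregs were 2.90 to 4.58 in control and 1.14 to 2.58 in GC tumors. The median change over the 10 members was -0.76, against -0.23 over all genes tested in Tregs, while in CD8 T cells it was 0.19 over the 7 tested against -0.09.

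**Figure D3:**
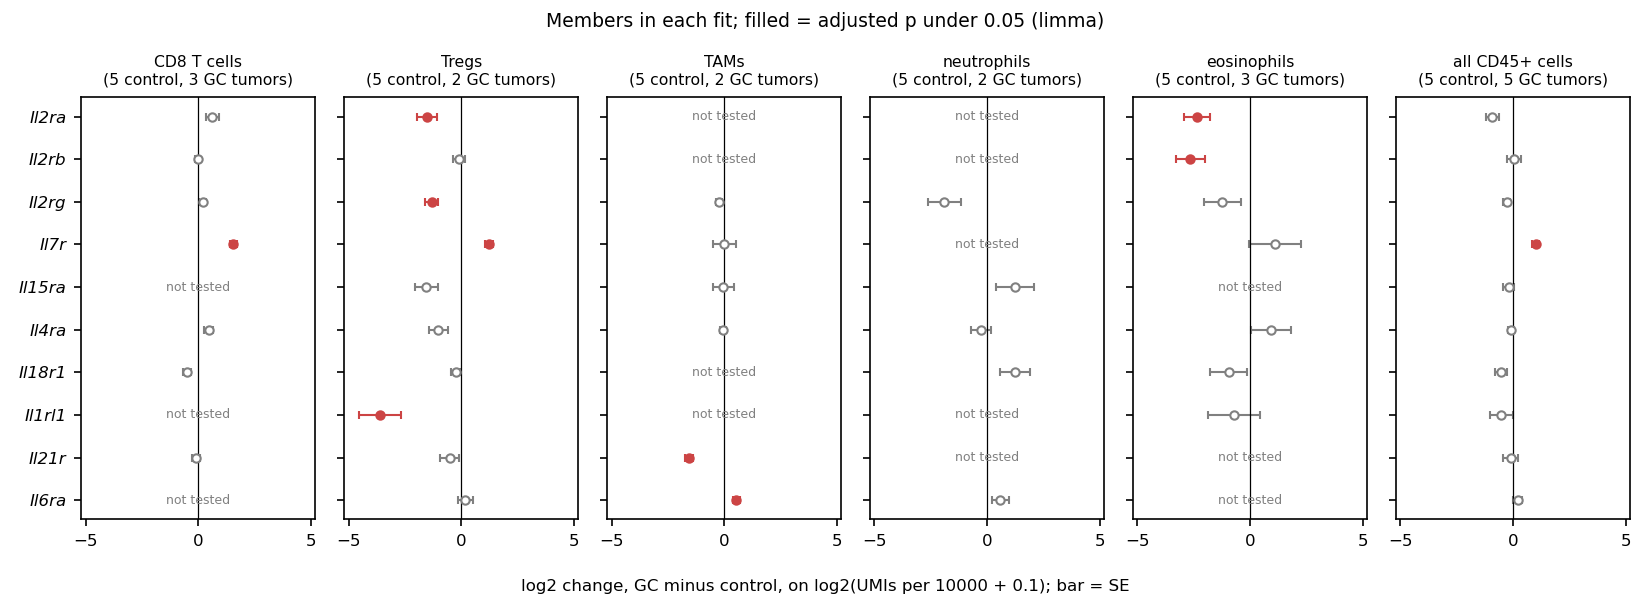
Change of each receptor gene between GC and control tumors in 6 cell classes, on the scale log2(UMIs per 10000 + 0.1) with bars for the SE, filled where the limma adjusted p was under 0.05. Il7r is to the right in CD8 T cells (1.55), Tregs (1.22) and all CD45+ cells (1.00), while Il21r (-1.57) is to the left and Il6ra (0.54) to the right in TAMs.

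In TAMs, 2 of 6 members tested were called, against 21.2% of 5988 genes: Il21r fell and Il6ra rose. Il2ra, Il2rb, Il18r1 and Il1rl1 were too low to enter. Il21r was 0.933, 0.854, 1.1, 0.885 and 0.811 UMIs per 10000 in the control tumors and 0.217, 0.265, 0.196 and 0.509 in GC tumors 2 to 5, GC 1 having no TAMs. Every GC tumor was below every control tumor, including GC 4 and GC 5, which had under 10 TAMs. The change of -1.57 ± 0.17 had limma and edgeR adjusted p of 0.000222 and 0.00162 (n = 5 and 2). A UMI of Il21r was found in 15.6% of 710 thinned control TAMs (13.0 to 18.5) and in 1 of 43 GC TAMs (0.059 to 12.3), while control neutrophils, at 0.0411 ± 0.0566, had nearly none.

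In monocytes, where GC 3 alone reached 10 GC cells and GC 2 had 8, the Il21r values went the same way and were not tested over tumors. Il21r was between 0.536 and 1.37 in the control tumors and at 0.117, 0, 0 and 0 in the GC tumors with monocytes. In all, 639 UMIs in 449 control cells gave 1.16 UMIs per 10000 (1.07 to 1.25), and 2 UMIs in 21 GC cells gave 0.0605 (0.0073 to 0.219). Counting intervals do not cover the spread between tumors.

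Il6ra in TAMs was 2.04, 2.19, 2.04, 2.32 and 1.5 in the control tumors and 3.05, 2.86, 3.38 and 2.18 in GC tumors 2 to 5. GC 5, with 7 TAMs, fell among the controls. The change was 0.54 ± 0.16, from 2.02 ± 0.313 to 2.96 ± 0.132, with limma and edgeR adjusted p of 0.0337 and 0.00607. With a minimum of 5 cells, which let in GC 5, it was 0.40 with a limma adjusted p of 0.123, and without control 1, control 2, control 3 or GC 2 the limma adjusted p was between 0.0525 and 0.0685. A UMI was found in 30.6% of thinned control TAMs and 46.5% of GC TAMs, against 0.933% of control CD8 T cells. Its partner Il6st, from the other genes of the pathway, rose with it, by 0.76 ± 0.17 (limma adjusted p of 0.00931). In monocytes, Il6ra did not differ in this way. Summed over cells it was 2.72 UMIs per 10000 (2.59 to 2.86) in control and 2.69 (2.16 to 3.31) in GC monocytes, not tested over tumors.

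Il4ra, through which IL-4 and IL-13 act on macrophages, was at 3.21 in control and 3.11 in GC tumors, a change of -0.03 ± 0.14. Il7r in TAMs had no stable value, since the GC tumors were at 0.781, 4.46, 0 and 0.771 against 1.74 to 2.20 in control. The summed TAM markers were 67.0 to 87.8 in control and 70.4 to 99.4 in GC tumors. T cell markers in the TAMs were 0.21 to 0.53, with 8 of 8 found, in control tumors and 0.06 to 0.11, with 4 of 8 at 0, in GC tumors, and neutrophil markers were 1.66 to 1.89 and 4.46 to 6.02. Their part in the Il21r and Il6ra results was not tested.

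**Figure D4:**
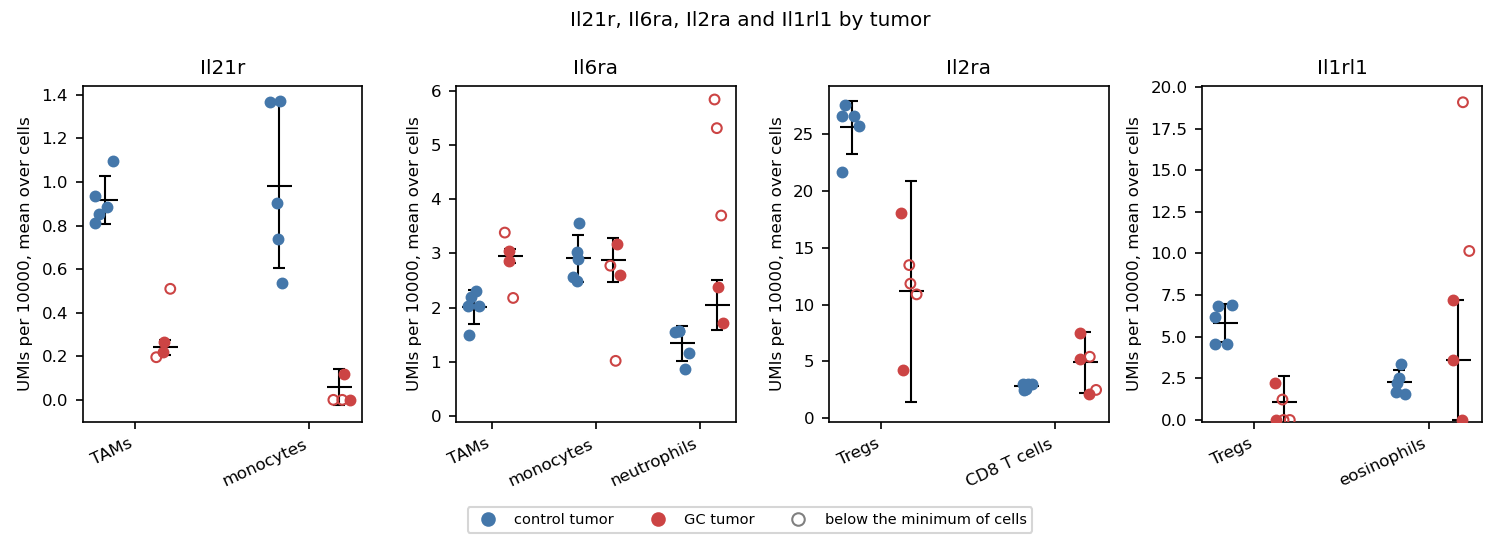
Il21r, Il6ra, Il2ra and Il1rl1 in each tumor, as the mean UMIs per 10000 over the cells of the class, with open points for tumors below the minimum of cells and bars for the mean ± SD of the filled points. Il21r in TAMs is at 0.811 to 1.1 in control and 0.196 to 0.509 in GC tumors, and Il2ra in Tregs at 21.7 to 27.6 and 4.29 to 18.0.

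In neutrophils, 0 of 5 members tested passed the limma threshold, against 4.83% of 4411 genes, with 1 member at an unadjusted p under 0.05 and 0 called by edgeR or by DESeq2. Il6ra, the neutrophil receptor that is shed as soluble receptor in inflammation, was 0.861, 1.57, 1.55, 1.17 and 1.57 in the control tumors. The GC tumors were at 5.84, 1.73, 2.38, 5.31 and 3.70, each above every control. Only GC 2 and GC 3 had 10 neutrophils, and over them the change was 0.59 ± 0.39 with a limma adjusted p of 0.450.

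In eosinophils, 2 of 7 members tested passed, Il2ra and Il2rb, both lower, against 10.0% of 5345 genes. Both had a mean of 0 in the GC tumors tested, so they entered the test through the control tumors alone. Il2ra was 0.575, 0.408, 0.266, 0.460 and 0.425 in the control tumors and 0 in every GC tumor. The 32 GC eosinophils held 0 Il2ra UMIs of 40043 in all, which allows up to 0.749 UMIs per 10000, more than the 0.395 summed over control eosinophils. A difference in Il2ra was therefore not detectable at this depth, and its edgeR adjusted p was 0.255. Il2rb was between 0.167 and 1.05 in the control tumors and 0 in GC tumors except for 1 UMI in the single eosinophil of GC 4, with an edgeR adjusted p of 0.190. The median change of all genes tested in eosinophils was -0.65. The T cell markers moved with them, from 1.83 to 2.70 with 8 of 8 found in control eosinophils to 0 for all 8 in the GC tumors tested, and their part was not tested.

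Il1rl1 in eosinophils went in opposite directions by method. The control tumors were between 1.57 and 3.38 and the GC tumors at 10.2, 7.18, 0, 19.1 and 3.61. Of the GC tumors tested, GC 2 and GC 5 were above every control and GC 3 was below. GC 1 and GC 4 were also above, but they held 4 and 1 eosinophils and stayed out of the test. Each control tumor held at least 50. On the limma scale, over GC 2, GC 3 and GC 5, the change was -0.72 ± 1.14 (adjusted p of 0.759), while on UMI sums the edgeR change was 1.72 (adjusted p of 0.000192). By edgeR Il7r in eosinophils was also higher (adjusted p of 0.00109), where limma gave 1.1 ± 1.14 (adjusted p of 0.609). Mast cell and basophil markers moved with it, from 0 to 0.450 in control eosinophils to between 0 and 28.8 in GC eosinophils, with 4 of 5 markers found, and their part was not tested.

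Of the classes not tested over tumors, several had a higher summed Il7r level in GC tumors. Summed over cells, Il7r in the CD4 cluster was 7.80 UMIs per 10000 (7.42 to 8.20) in control and 13.9 (11.7 to 16.4) in the 10 GC cells, and in DC 1 it was 6.67 (6.26 to 7.09) and 10.1 (8.81 to 11.5). NK cells had 0.871 (0.697 to 1.07) in control and 6.92 (5.22 to 9.01) in 4 GC cells, with 1 GC tumor at 12.8 and the other at 0.623. For γδT cells the intervals overlapped, at 18.4 (16.9 to 19.96) and 22.6 (19.4 to 26.2).

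Il18r1 differed in direction between these lymphocytes. Summed over cells it was 18.1 (16.6 to 19.7) in control and 8.91 (6.93 to 11.3) in GC γδT cells, and 8.54 against 3.65 (2.44 to 5.24) in NK cells. In the CD4 cluster it was 10.5 in control and 16.97 (14.6 to 19.7) in GC cells. In DC 1, Il2ra was 3.13 (2.86 to 3.42) and 1.17 (0.761 to 1.71), while Il15ra was 2.86 and 2.60. The intervals cover counting error only, and these differences were not tested over tumors.

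Over all CD45+ cells, where all 5 GC tumors entered, 1 of 10 members was called, against 6.15% of 6471 genes: Il7r rose. It was 3.66, 4.59, 4.42, 4.12 and 3.64 in the control tumors and 9.76, 5.21, 9.54, 9.12 and 8.64 in the GC tumors, with no overlap. The change was 1.00 ± 0.17, from 4.09 ± 0.433 to 8.45 ± 1.86, with limma and edgeR adjusted p of 0.0069 and 0.00308. Il2ra, at 4.23 in control and 2.40 in GC tumors, had a limma adjusted p of 0.0792. Il1rl1, lower on the mean, had a limma adjusted p of 0.609 and an edgeR adjusted p of 0.0405.

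A level over all cells mixes the shares of the clusters with the level inside each. The shares alone were therefore used to compute the level each tumor would have had with every cluster at its control mean. For Il7r in GC tumors this gave 3.97, against 8.45 observed, with observed over computed ratios of 1.73 to 2.52 in the 5 GC tumors and 0.903 to 1.16 in the control tumors. The control tumors lie near their computed levels by construction, since the cluster means were taken from them. For Il2ra the shares gave 2.75 against 2.40 observed, with ratios of 0.585 in GC 1 and 0.471 in GC 3 and of 1.04 to 1.18 in the other GC tumors. Il18r1 was below the computed level in each GC tumor (ratios of 0.292 to 0.799) and Il6ra above it in each (1.27 to 3.46). Il2rb was close to it on the mean, at 3.28 observed and 3.13 computed.

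**Figure D5:**
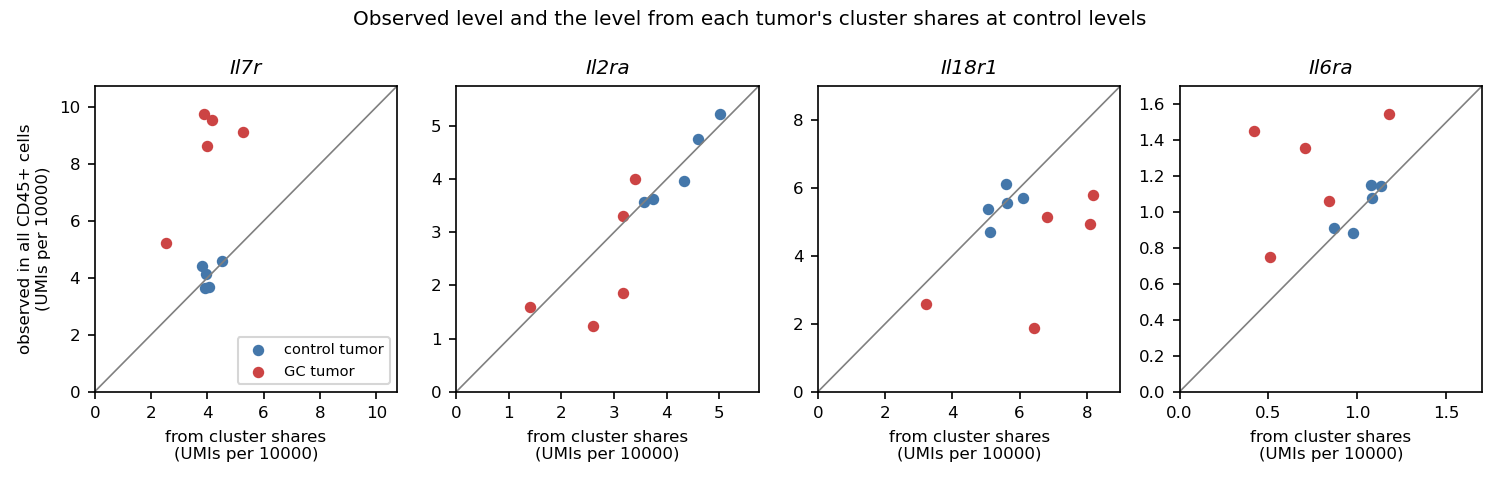
Level of 4 receptor genes over all CD45+ cells of each tumor (vertical axis, UMIs per 10000) against the level computed from that tumor's cluster shares at control levels (horizontal axis), with the line of equal values. Il7r lies above the line in all 5 GC tumors, with ratios of 1.73 to 2.52, and Il18r1 below it, with ratios of 0.292 to 0.799.

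The genes that act with these receptors were counted from a list of 62 ligands, partner chains, kinases, STAT factors, inhibitors, targets and other cytokine receptors. In CD8 T cells 3 of 39 tested rose and 3 fell, beside 5.02% of all genes called in either direction. Bcl2, the survival gene downstream of IL-7, rose by 1.00 ± 0.19 from 6.62 to 13.1 (limma adjusted p of 0.0116), and Stat4 and Irak2 also rose. Gata3 fell by 1.14 (limma adjusted p of 0.00912), and Mcl1 fell by 0.50 but with an edgeR adjusted p of 0.292. Il1rn also fell, from a mean of 0.335 in control to 0.0256 in GC tumors. Its GC mean was below the filter of 0.2, so it entered the test through the control tumors. In control TAMs Il1rn was at 9.71, and macrophage transcripts in the CD8 T cells were lower in GC tumors. Their part in the Il1rn result was not tested. Of the 4 JAK kinases tested, 0 passed the threshold by limma in CD8 T cells.

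In Tregs 1 of 41 rose and 8 fell by limma, beside 16.6% of all genes called, most of them lower (680 of 999). That direction depended on the method. Of all genes called in Tregs, 270 of 366 were higher by DESeq2, and 678 of 1080 by limma on the mean of deposited log values. By edgeR only the fall of Il1r2, the decoy receptor for IL-1, was called. Il1r2 fell by 3.51 on the log2 scale (limma adjusted p of 0.0145). Il18rap, the partner of Il18r1, fell by 1.08 (limma adjusted p of 0.0400, edgeR 0.287), and Stat3, Gata3, Pim1, Socs1, Socs2 and Il1rn were the others, with Irak1 the one that rose. In the GC tumors tested, Il1rn was at 0 and Socs1 at 0.0599, against 0.872 and 0.463 in control tumors. Both GC means were below the filter of 0.2, so these genes entered the test through the control tumors. Over the 14 GC Tregs, 3 UMIs give a level of 0.238. The edgeR adjusted p were 0.230 for Il1rn and 0.320 for Socs1. In TAMs 6 of 46 rose, among them Il6st, Socs1, Il18 and Il1r2, and 9 fell, among them Bcl2 and Il17ra. These counts stand beside 21.2% of all genes called in TAMs, and by edgeR they were 7 and 3.

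In neutrophils 3 of 39 fell (Stat4, Il1rn and Pim1), in eosinophils 6 of 41 fell, and over all CD45+ cells 4 of 50 fell (among them Il6, Il17ra and Pim1), with 0 higher in each by limma. The shares of all genes called were 4.83%, 10.0% (502 of 536 lower) and 6.15%. By edgeR the list had 3 higher and 4 lower over all CD45+ cells, and 1 higher and 5 lower in eosinophils. Of the 6 that fell in eosinophils, Stat5b, Socs3 and Csf1r were at 0 in the GC tumors tested. Il1r2, Pim1 and Stat5b were also called there by edgeR, while Il6, Socs3 and Csf1r were not (edgeR adjusted p of 0.0701, 0.210 and 0.211). Genes known to be induced through the glucocorticoid receptor, Fkbp5, Klf9, Tsc22d3 and Zbtb16, rose in 3 of 3 tested in CD8 T cells and in Tregs, in 4 of 4 in TAMs, in 3 of 4 in neutrophils and in 1 of 4 in eosinophils.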

How the data were processed

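Live CD45+ cells of 5 control and 5 GC tumors were profiled with a droplet 3′ kit. The authors aligned reads with Cell Ranger 7.1.0 to mm10 with introns included, kept cells with 1 hashtag, which removed doublets between tumors but not within them, and removed quality outliers. They used Seurat 5.0.3 in R 4.3.1, and Partek (no version given), per the labels' processing notes and the methods. The deposited values are the natural log of 1 + UMIs per 10000, with no batch correction, beside the deposited counts of UMIs per cell. Whole UMI counts were recovered from the deposited values (100% within 0.01). Cell types are the authors' annotation, and no doublet caller was run.

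Per tumor and class, the mean UMIs per 10000 + 0.1 was put on the log2 scale and tested with limma 3.58.1 (trended, robust, in R 4.3.3) over genes with a mean of at least 0.2. P-values were adjusted by Benjamini-Hochberg over all genes tested, with a threshold of 0.05. edgeR 4.0.16 (quasi-likelihood) and DESeq2 1.42.0 on summed UMIs were alternatives. A tumor needed 10 cells of a class, 3 for Tregs and, since a minimum of 10 left 1 GC tumor, 5 for eosinophils, a departure from the planned rule. CD8 T cells pool CD8 1 to CD8 3. Shares of cells with a UMI used cells thinned to 2000 UMIs. Levels by cluster needed 5 cells, and likeness compared genes reaching 0.5 UMIs per 10000. The fits were tested on simulated data. All 10 members are named, the 3 genes most like each were found by Pearson correlation, and pathway genes are named where limma called them, except that some genes are not reported here. The members and lists were chosen with earlier results of these data known. P-values measure the spread between tumors within 1 channel per group. Depth limits the values: intervals and floors (3 UMIs, 95%) cover counting error only. Sequences came from RefSeq promoters (GRCm38.p6, 9 of 10 members) and GENCODE transcripts.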

Additional observations from a re-analysis of the deposited data

Results flagged for a closer look

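Of 55 groups of tumors examined, 3 held a tumor set apart from the rest of its group, where chance gives about 1 in 20. Il7r over all CD45+ cells was 5.21 UMIs per 10000 in GC 2, against 8.64 to 9.76 in the other GC tumors. In the same tumor Il2rb over all CD45+ cells was 1.08, against 3.27 to 4.08. Il2rb in CD8 T cells of control 3 was 6.73, against 6.25 to 6.32 in the other control tumors. GC 2 had 12 CD8 T cells beside 17 TAMs and 19 neutrophils, and within its CD8 T cells Il7r was 15.4 and Il2rb 5.50.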

How the results depend on the processing

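The rise of Il7r in all CD45+ cells passed the threshold in 19 of 19 alternatives (log2 change 0.70 to 1.21), in CD8 T cells in 19 of 20 (1.19 to 1.71) and in Tregs in 15 of 16 (0.94 to 1.65), and the fall of Il21r in TAMs in 16 of 16 (-1.82 to -0.48). Il6ra in TAMs passed in 10 of 16, and in Tregs Il2rg and Il1rl1 in 10 of 16 each and Il2ra in 7 of 16. Members called in CD8 T cells were 1, but 2 with a minimum of 20 cells, 0 in cluster CD8 2 alone, and 1 to 2 with 1 tumor left out (2 without GC 2 or GC 3); in neutrophils 0 throughout. In TAMs 2 were called, but 5 with genes of a mean of at least 0.05, 1 with a minimum of 5 cells, and 1 to 3 with 1 tumor left out (1 without control 1, 2 or 3). In eosinophils 2 were called, but 1 with a mean of at least 0.05, 0 with no filter, with a pseudocount of 1 or on the mean of deposited log values, and 0 to 3 with 1 tumor left out (0 without control 1, 2, 3 or 5, 1 without control 4, 3 without GC 2). In Tregs 4 were called, but 2 with edgeR, with DESeq2, on the log values or with a minimum of 1 cell, and 1 to 8 with 1 tumor left out (1 without control 1, 3 or 4, 2 without control 2 or 5, and 8 without GC 5, which left 1 GC tumor assumed to vary like the controls). Over all CD45+ cells 1 was called, but 2 with edgeR or DESeq2 and 1 to 2 with 1 tumor left out (2 without GC 5). Il1rl1 in eosinophils turned to 1.72 with edgeR and 2.23 with DESeq2. Leaving out 1 tumor gave Il15ra in TAMs -0.11 to 1.00, Il7r in TAMs -1.18 (without GC 3) to 1.19, and Il2rb in Tregs -0.63 to 0.44. The cause was not tested. Over all genes, limma called 1270 in TAMs (411 higher), 999 in Tregs (319), 536 in eosinophils (34), 398 over all CD45+ cells (151), 309 in CD8 T cells (140) and 213 in neutrophils (92). edgeR called 670 (415), 168 (74), 450 (133), 610 (377), 380 (240) and 203 (116), and DESeq2 called 366 in Tregs, 207 in eosinophils and 1080 over all CD45+ cells. A minimum of 20 cells gave no value for TAMs, neutrophils or eosinophils. Shares of cells with a UMI moved with the thinning depth. No paired analysis was possible because the labels number no tumor and the hashtags are only names.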
